A study of Mus musculus with 18 samples.

Results

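The genes described here are 10 canonical Wnt feedback and target genes, Axin2, Nkd1, Nkd2, Apcdd1, Dkk1, Notum, Rnf43, Znrf3, Lgr5 and Sp5. They were taken by name, from a list chosen with earlier results of these data known, and not by their values. All 10 were among the 20321 genes of the deposited count table, and all 10 passed the filter on low counts that left 13826 genes for testing. The study asked how Wnt signalling acts in early blood and heart progenitors made from mouse embryonic stem (ES) cells. It used the GFP-Bry ES cell line, in which GFP is knocked into the Brachyury locus and marks cells entering mesoderm. Cells from its embryoid bodies were either gated on GFP and then sorted for Endoglin (E) and Flk-1 (F), or left unsorted, and were reaggregated in culture for 24 h, so the sorted populations differ from unsorted cells by the GFP gate as well.

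There were 6 groups of 3 libraries, 18 in all. E+F+ cells with 10 μM IWR-1 were set against E+F+ cells with the vehicle DMSO, E+F- cells with IWR-1 against E+F- cells with DMSO, and unsorted cells with IWR-1 against unsorted cells with DMSO. IWR-1 is a small molecule that blocks tankyrase and so protects Axin proteins from breakdown. Each group had 1 library in each of Sets 1, 2 and 3, which are the replicate numbers of the sample labels. All libraries came from this 1 cell line, for which the labels name no other allele, all were harvested after reaggregation, and every control received DMSO. E+F+ and E+F- name the cells as sorted, not as harvested. In the harvested DMSO libraries Kdr, which encodes Flk-1, averaged 10.96 ± 2.94 TPM in E+F+, against 46.0 ± 26.1 TPM in E+F- (SD, n = 3 each), so its RNA went against the sort label, with a log2 difference of -1.96 (edgeR adjusted p = 0.0235). Eng, which encodes Endoglin, averaged 5.64 TPM in E+F+ DMSO and 5.52 TPM in E+F- DMSO. TPM is RSEM's measure of relative transcript abundance, corrected for transcript length.

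Summed counts per library were 19725500 to 26649631. On the second principal component of all genes, which held 17.3% of the variance, the Set 3 library had the lowest score of its group in all 6 groups. The gap to the other Sets was widest in E+F- cells (-45.9 against 40.2 and 42.0 under IWR-1, -22.1 against 47.6 and 40.6 under DMSO) and narrowest in E+F+ cells. Results that change without the Set 3 libraries are given with and without them. The other cell types that each population could hold also differed. The 6 primitive erythroid markers summed to 727 to 4365 TPM in E+F+ DMSO and 3.20 to 157.5 TPM in E+F- DMSO. The 6 primitive streak and mesoderm markers summed to 2.94 to 4.95 TPM in E+F+ DMSO and 772 to 1329 TPM in E+F- DMSO, and Msgn1, a defining gene of presomitic mesoderm, was at 0 in all E+F+ libraries. In bulk RNA, fewer cells of a type and less RNA per cell cannot be told apart.

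In canonical Wnt signalling, a Wnt ligand binds Frizzled and LRP receptors, the complex that marks β-catenin for breakdown is switched off, and β-catenin enters the nucleus to activate genes with TCF and LEF factors. A number of these target genes encode inhibitors of the pathway itself, so that signalling limits its own strength. Their RNA is therefore widely read as a measure of pathway activity, in the primitive streak, the presomitic mesoderm and the intestinal crypt among other sites. The 10 genes act at different levels: Axin2, Nkd1 and Nkd2 inside the cell, Apcdd1 at the membrane, Dkk1 and Notum outside it, Rnf43, Znrf3 and Lgr5 at the control of receptor turnover, and Sp5 in the nucleus.

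Promoter sequences from RefSeq (GRCm38.p6, 250 bases before to 50 bases after an annotated start) were matched for 6 members, Axin2, Nkd1, Nkd2, Dkk1, Rnf43 (with 2 starts) and Sp5. They were searched on both strands for 4 forms of the TCF and LEF motif, namely CTTTGAA (found in 5.14% of all 32851 promoter windows), CTTTGAT (found in 3.73%), CTTTGTT (found in 5.85%) and CTTTGTA (found in 3.63%). No matches overlapped one another in the members' windows. Apcdd1 was left out of this search, and no window was held for Notum, Znrf3 and Lgr5. Sp5 and Dkk1 are printed because they were the matched members with such a motif, and Axin2 because it is the usual readout of the pathway and held none. Capitals mark the motifs, on either strand.
Sp5, chr2:70474673-70474972, plus strand: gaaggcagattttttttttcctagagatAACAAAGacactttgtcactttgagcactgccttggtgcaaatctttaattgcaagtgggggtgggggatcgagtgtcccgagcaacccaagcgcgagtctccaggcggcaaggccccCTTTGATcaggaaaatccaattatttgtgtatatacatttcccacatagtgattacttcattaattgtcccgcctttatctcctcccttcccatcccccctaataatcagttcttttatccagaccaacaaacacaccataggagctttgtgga
Dkk1, chr19:30549447-30549746, minus strand: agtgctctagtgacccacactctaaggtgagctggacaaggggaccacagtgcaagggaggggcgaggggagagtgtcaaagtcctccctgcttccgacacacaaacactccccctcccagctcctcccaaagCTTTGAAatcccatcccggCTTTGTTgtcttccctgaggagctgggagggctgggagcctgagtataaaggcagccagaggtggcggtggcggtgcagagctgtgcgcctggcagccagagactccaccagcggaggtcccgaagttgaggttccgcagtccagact
Axin2, chr11:108920099-108920398, plus strand: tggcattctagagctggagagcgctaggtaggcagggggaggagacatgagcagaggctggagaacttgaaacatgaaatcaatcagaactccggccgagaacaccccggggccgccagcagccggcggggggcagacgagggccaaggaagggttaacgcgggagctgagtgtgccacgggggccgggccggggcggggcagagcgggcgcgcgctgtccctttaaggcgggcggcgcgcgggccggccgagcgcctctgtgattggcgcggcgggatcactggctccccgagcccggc
The Sp5 window held CTTTGAT 104 bases before the start and CTTTGTT, read on the other strand, 222 bases before it. The Dkk1 window held CTTTGAA 117 bases and CTTTGTT 98 bases before the start. At least 1 of the 4 forms was present in 16.9% of all windows and in 2 of the 7 windows of the members searched. A match describes letters and not a site of binding, and sequence outside these windows was not searched.

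On build GRCm38, Axin2 lies on the plus strand of chromosome 11 (108920349 to 108950783), as does Rnf43 (87662722 to 87735539), while Notum (120653788 to 120661175) and Znrf3 (5276324 to 5444847) lie on its minus strand. Nkd1 is on chromosome 8 (88521354 to 88594884, plus), Nkd2 on chromosome 13 (73818534 to 73847631, minus), Dkk1 on chromosome 19 (30545863 to 30549665, minus), Lgr5 on chromosome 10 (115450311 to 115587780, minus), Sp5 on chromosome 2 (70474923 to 70477729, plus) and Apcdd1 on chromosome 18. All 10 are annotated as protein coding. The libraries did not mark strand, and 918 exonic bases of Notum are shared with the antisense genes Myadml2os and Notumos and 209 exonic bases of Axin2 with the antisense gene Gm11670, so reads from those stretches cannot be assigned to 1 strand.

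Under IWR-1, 5 of the 10 members fell in E+F- cells, 1 fell in unsorted cells and none passed in E+F+ cells by the edgeR test. The genes that fell in E+F- cells were Dkk1, Nkd1, Notum, Lgr5 and Axin2, by 3.18-fold (Axin2) to 10.3-fold (Dkk1), where 0.391% of the 13826 genes fell. In unsorted cells Notum alone passed as lower, by 6.16-fold, where 0.0868% of genes fell. At an unadjusted edgeR p under 0.05, 7 members were lower there and 0 were higher, against 4.24% of all genes lower and 4.45% higher. DESeq2 called Notum, Nkd1, Dkk1 and Znrf3 lower in unsorted cells, where it called 0.716% of genes lower. For E+F+ cells the edgeR test called 0 members and 0 of 13826 genes (0%). There, 5 members were lower at an unadjusted p under 0.05 and 0 were higher, against 2.97% of all genes lower and 2.05% higher by that rule, and DESeq2 called 2 members lower, Notum and Lgr5, where it called 0.174% of genes lower.

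**Figure D1:**
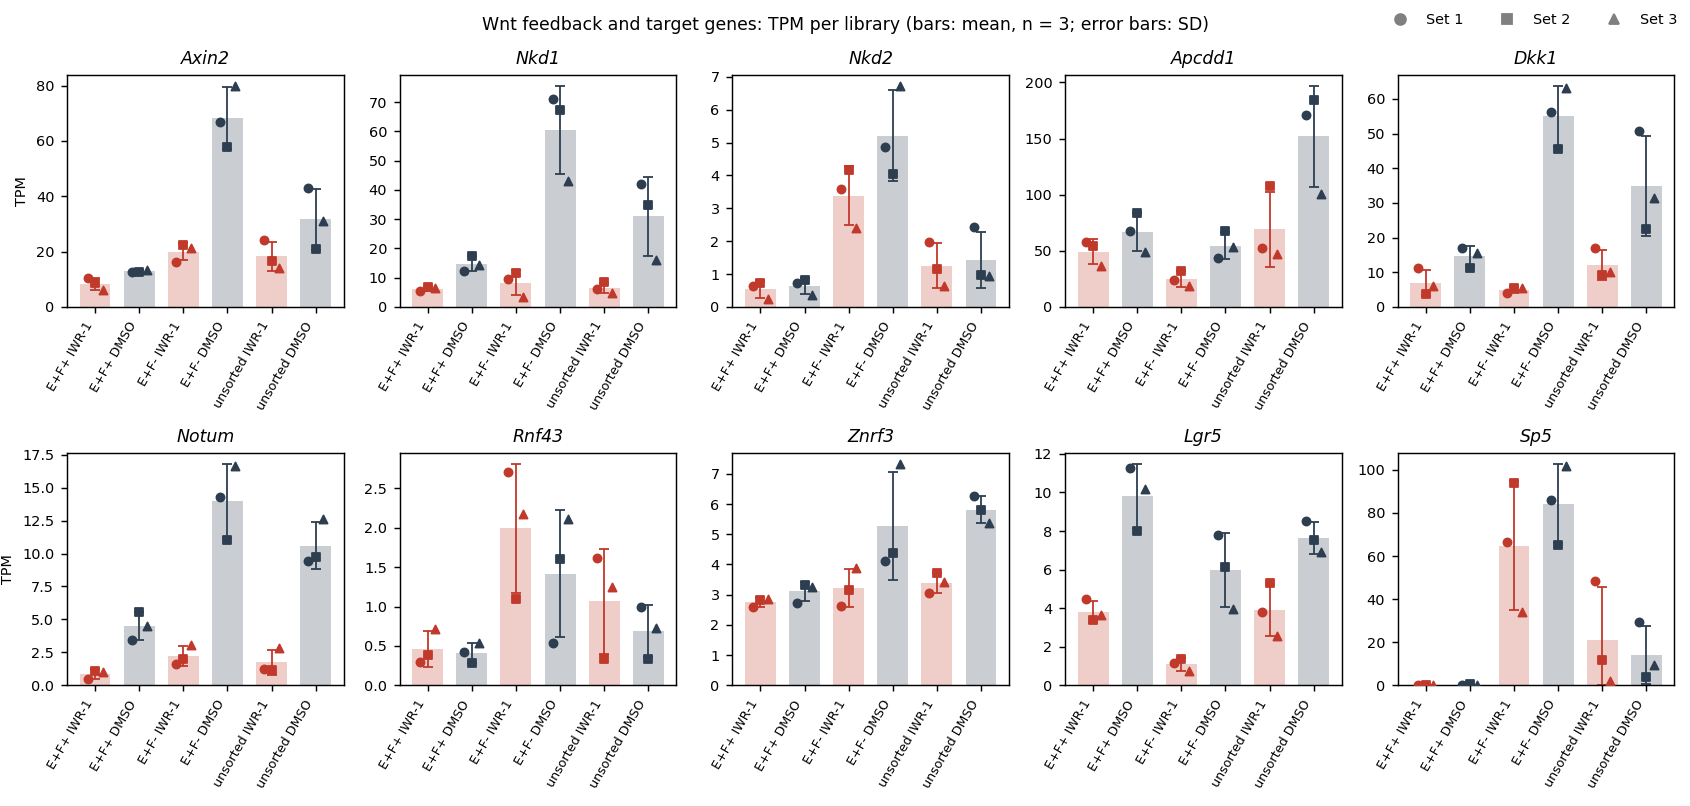
TPM of each member in all 18 libraries. The x axis gives the 6 groups, with IWR-1 (red) left of DMSO (dark) in each population, bars are means of 3 libraries, error bars are SD, and the marker shape gives the Set. Axin2 and Nkd1 were highest in the 3 E+F- DMSO libraries, and Sp5 was at or below 0.41 TPM in every E+F+ library.

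Axin2 encodes a scaffold of the complex that breaks down β-catenin. It had 16.4, 22.4 and 21.2 TPM in the E+F- IWR-1 libraries of Sets 1, 2 and 3, against 66.8, 57.9 and 80.0 TPM in E+F- DMSO. It had 10.4, 8.50 and 6.05 TPM in E+F+ IWR-1, against 12.5, 12.7 and 13.3 TPM in E+F+ DMSO. It had 24.3, 16.7 and 14.1 TPM in unsorted IWR-1, against 42.8, 20.8 and 31.2 TPM in unsorted DMSO. Every IWR-1 library was below the DMSO library of its Set, and the groups did not overlap in E+F- or E+F+ cells but did in unsorted cells. The IWR-1 libraries kept 45.4 to 82.8% of the DMSO level in E+F+, 24.6 to 38.7% in E+F- and 45.1 to 79.9% in unsorted cells. The log2 difference was -1.67 ± 0.23 in E+F- cells (SE, edgeR adjusted p = 0.00285). It was -0.65 ± 0.23 in E+F+ (edgeR adjusted p = 0.914) and -0.79 ± 0.23 in unsorted cells (edgeR adjusted p = 0.272), neither of which passed.

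Nkd1 encodes a cytoplasmic protein that binds Dishevelled and dampens the signal. It had 9.63, 11.7 and 3.55 TPM in the E+F- IWR-1 libraries, against 71.0, 67.4 and 43.1 TPM in E+F- DMSO. It had 6.18, 8.46 and 4.78 TPM in unsorted IWR-1, against 41.9, 34.9 and 15.9 TPM in unsorted DMSO. It had 5.31, 6.87 and 6.54 TPM in E+F+ IWR-1, against 12.4, 17.5 and 14.5 TPM in E+F+ DMSO. The groups did not overlap in any of the 3 populations, and the Set 3 libraries of E+F- and unsorted cells were the lowest under either treatment. The log2 difference in E+F- cells was -2.76 ± 0.44 (edgeR adjusted p = 0.00874), with 8.23 to 17.3% of the DMSO level left. That call was lost without the Set 1 E+F- IWR-1 library (-2.86, edgeR adjusted p = 0.0515) and in a fit of the E+F- libraries alone (-2.76, edgeR adjusted p = 0.105). In unsorted cells it was -2.26 ± 0.44 and did not pass (edgeR adjusted p = 0.0599), but it passed with the Set as a block (-2.22, edgeR adjusted p = 0.00895) and without the Set 3 libraries (-2.40, edgeR adjusted p = 0.00455). The E+F+ value was -1.27 ± 0.43 (edgeR adjusted p = 0.890), and it passed only in a fit of the E+F+ libraries alone (edgeR adjusted p = 0.0443).

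Nkd2, the paralogue of Nkd1, was low throughout and did not pass in any population. It had 3.59, 4.17 and 2.40 TPM in E+F- IWR-1, against 4.85, 4.05 and 6.73 TPM in E+F- DMSO. Set 2 was level there and Set 3 was not, and the groups overlapped. The highest value outside E+F- cells was 2.42 TPM, in the unsorted DMSO library of Set 1. Its log2 differences were -0.27 ± 0.51 in E+F+, -0.50 ± 0.47 in E+F- and -0.20 ± 0.48 in unsorted cells, with edgeR adjusted p of 0.997, 0.883 and 0.955.

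Apcdd1, a membrane protein that binds Wnt and LRP5 and inhibits signalling, was the member with the highest levels in unsorted cells. It had 52.1, 107.8 and 47.2 TPM in unsorted IWR-1, against 170.9, 184.7 and 100.7 TPM in unsorted DMSO. It had 24.0, 32.5 and 18.8 TPM in E+F- IWR-1, against 43.3, 67.6 and 53.2 TPM in E+F- DMSO. It had 57.5, 54.3 and 36.2 TPM in E+F+ IWR-1, against 67.8, 83.6 and 49.2 TPM in E+F+ DMSO. Every Set pair was lower under IWR-1, with the groups apart only in E+F- cells. The log2 difference was -1.02 ± 0.37 in E+F- (edgeR adjusted p = 0.408) and -1.14 ± 0.36 in unsorted cells (edgeR adjusted p = 0.337), and neither passed. With the Set as a block both passed, at -1.06 in E+F- (edgeR adjusted p = 0.00956) and -1.18 in unsorted cells (edgeR adjusted p = 0.0119). The E+F+ value was -0.45 ± 0.36 (edgeR adjusted p = 0.997).

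Dkk1 encodes a secreted protein that binds LRP5 and LRP6 and keeps Wnt from its co-receptor. It had 4.0, 5.4 and 5.6 TPM in E+F- IWR-1, against 56.2, 45.6 and 63.2 TPM in E+F- DMSO. It had 16.97, 9.15 and 10.0 TPM in unsorted IWR-1, against 50.6, 22.6 and 31.5 TPM in unsorted DMSO. It had 11.2, 3.87 and 6.09 TPM in E+F+ IWR-1, against 16.98, 11.3 and 15.7 TPM in E+F+ DMSO. The groups did not overlap in any population, and the E+F- IWR-1 libraries kept 7.12 to 11.8% of the DMSO level, where 7.12% was the lowest share of all 90 pairs of a member and a Set. The log2 difference in E+F- cells was -3.36 ± 0.35 (edgeR adjusted p = 0.000524), and by its p-value Dkk1 ranked 2 among the 13826 genes. In unsorted cells it was -1.54 ± 0.33 and did not pass (edgeR adjusted p = 0.0899), but passed with the Set as a block (-1.52, edgeR adjusted p = 0.0145). The E+F+ value was -1.08 ± 0.33 (edgeR adjusted p = 0.766).

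Notum encodes a secreted enzyme that removes the lipid from Wnt proteins, and its share left under IWR-1 covered like ranges in the 3 populations. It had 0.44, 1.12 and 1.01 TPM in E+F+ IWR-1, against 3.41, 5.59 and 4.47 TPM in E+F+ DMSO. It had 1.61, 1.96 and 3.06 TPM in E+F- IWR-1, against 14.3, 11.01 and 16.6 TPM in E+F- DMSO. It had 1.22, 1.15 and 2.82 TPM in unsorted IWR-1, against 9.42, 9.75 and 12.6 TPM in unsorted DMSO. All 3 populations were without overlap, and the share left ran over 12.9 to 22.6% in E+F+, 11.3 to 18.4% in E+F- and 11.8 to 22.3% in unsorted cells. The log2 difference was -2.58 ± 0.37 in E+F- (edgeR adjusted p = 0.00336) and -2.62 ± 0.38 in unsorted cells (edgeR adjusted p = 0.0166). In E+F+ cells it was -2.40 ± 0.39, the smallest p-value of all 13826 genes in that comparison, and it did not pass (edgeR adjusted p = 0.0917). With the Set as a block it passed there too (-2.42, edgeR adjusted p = 0.0273). The call in unsorted cells was lost without the Set 2 unsorted DMSO library (edgeR adjusted p = 0.0687), without the Set 1 unsorted IWR-1 library (edgeR adjusted p = 0.107) and in a fit of the unsorted libraries alone (-2.63, edgeR adjusted p = 0.583).

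Rnf43 and Znrf3 encode related membrane ubiquitin ligases that remove Frizzled receptors from the cell surface, and neither passed in any population. Rnf43 had 2.71, 1.10 and 2.17 TPM in E+F- IWR-1, against 0.54, 1.61 and 2.11 TPM in E+F- DMSO, and it stayed at or below 1.62 TPM in E+F+ and unsorted cells. It was lower under IWR-1 in 3 of 9 Set pairs, the fewest of the 10 members. Its log2 differences were 0.14 ± 0.59 in E+F+, 0.59 ± 0.55 in E+F- and 0.62 ± 0.57 in unsorted cells, with edgeR adjusted p of 0.997, 0.885 and 0.834. Znrf3 had 3.06, 3.72 and 3.41 TPM in unsorted IWR-1, against 6.28, 5.80 and 5.37 TPM in unsorted DMSO. It had 2.62, 3.14 and 3.89 TPM in E+F- IWR-1, against 4.12, 4.38 and 7.33 TPM in E+F- DMSO. Every Znrf3 pair was lower under IWR-1, with no overlap in unsorted or E+F- cells, and 48.7 to 71.7% of the DMSO level was left in these 2 populations. In E+F+ cells 85.3 to 94.5% was left, with 2.58, 2.84 and 2.86 TPM under IWR-1 against 2.73, 3.33 and 3.26 TPM under DMSO. The log2 difference was -0.78 ± 0.19 in unsorted (edgeR adjusted p = 0.141), -0.61 ± 0.19 in E+F- (edgeR adjusted p = 0.251) and -0.19 ± 0.19 in E+F+ cells (edgeR adjusted p = 0.997). In unsorted cells it passed with the Set as a block (-0.80, edgeR adjusted p = 0.0341).

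Lgr5 encodes a receptor for R-spondins, which hold Rnf43 and Znrf3 back from Frizzled. It had 1.14, 1.36 and 0.74 TPM in E+F- IWR-1, against 7.78, 6.14 and 3.96 TPM in E+F- DMSO. It had 4.45, 3.38 and 3.63 TPM in E+F+ IWR-1, against 11.3, 8.0 and 10.2 TPM in E+F+ DMSO. It had 3.81, 5.28 and 2.57 TPM in unsorted IWR-1, against 8.54, 7.53 and 6.89 TPM in unsorted DMSO. None of the 3 populations overlapped. The log2 difference in E+F- cells was -2.37 ± 0.34 (edgeR adjusted p = 0.00285), and this call was lost in a fit of the E+F- libraries alone (edgeR adjusted p = 0.0974). It was -1.38 ± 0.32 in E+F+ (edgeR adjusted p = 0.362) and -0.97 ± 0.31 in unsorted cells (edgeR adjusted p = 0.345). It passed for E+F+ cells in a fit of the E+F+ libraries alone (edgeR adjusted p = 0.0297) and by DESeq2 (adjusted p = 0.0131).

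Sp5 encodes a zinc finger transcription factor of the Sp family that is induced by Wnt signals. It had 66.6, 93.8 and 34.0 TPM in E+F- IWR-1, against 85.8, 65.1 and 102.0 TPM in E+F- DMSO. It had 48.6, 11.9 and 1.89 TPM in unsorted IWR-1, against 29.3, 3.83 and 9.37 TPM in unsorted DMSO. Both populations overlapped and the Sets went different ways, with 33.3 to 144% of the DMSO level left in E+F- and 20.2 to 311% in unsorted cells. In E+F+ cells Sp5 rested on 2, 9 and 3 counts under IWR-1, against 4, 12 and 7 counts under DMSO. The log2 differences were -0.65 ± 1.76 in E+F+, -0.25 ± 0.76 in E+F- and 0.55 ± 0.78 in unsorted cells, and none passed (edgeR adjusted p of 0.997, 0.973 and 0.912). Sp5 thus had the widest errors of the 10 members in the IWR-1 comparisons.

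**Figure D2:**
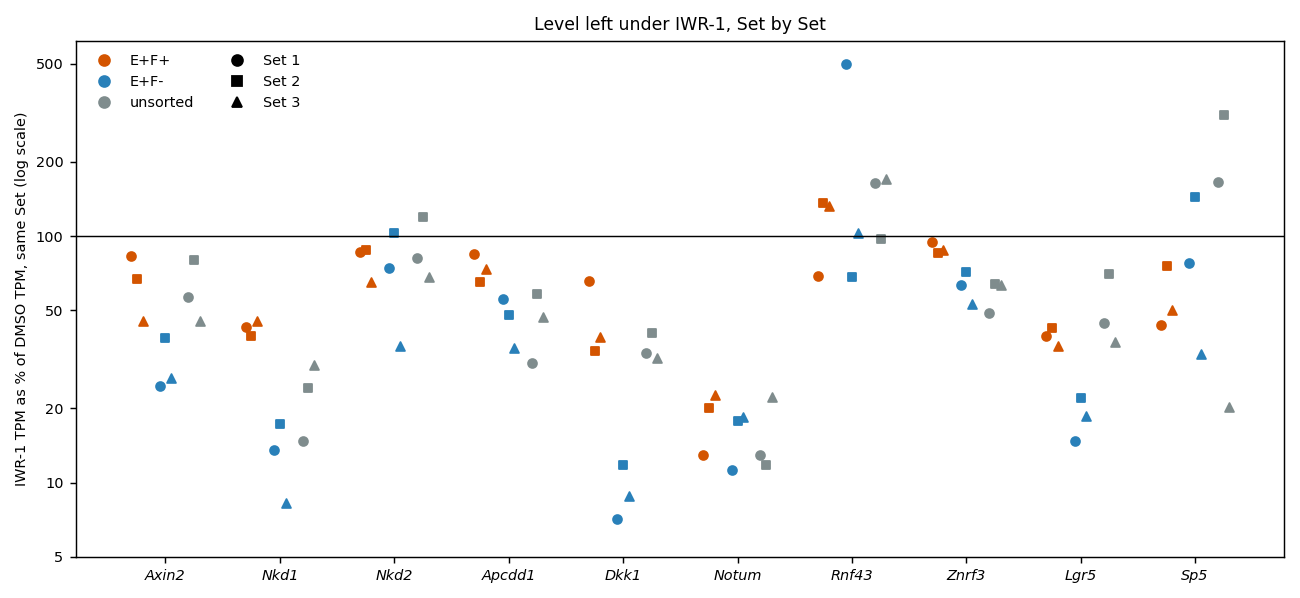
TPM under IWR-1 as a percent of TPM under DMSO in the same Set, on a log axis, for each member (x axis), population (colour) and Set (marker). The black line marks 100%. Axin2, Nkd1, Apcdd1, Dkk1, Notum, Znrf3 and Lgr5 lay below it in all 9 pairs, and Rnf43 in 3 of 9. The share of all genes below it in all 9 pairs is not given.

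Set by Set, 79 of the 90 pairs of a member's IWR-1 and DMSO values were lower under IWR-1. Axin2, Nkd1, Apcdd1, Dkk1, Notum, Znrf3 and Lgr5 were lower in all 9 pairs, Nkd2 in 7, Sp5 in 6 and Rnf43 in 3. The 9 pairs of a member share the 3 Sets and are not independent, and the share of all genes lower in all 9 is not given. In the single library pairs 8 to 10 of the 10 members were lower. Of the genes with at least 1 TPM in either library of a pair, 44.2 to 55.2% were lower in 7 of those 9 pairs. The members were counted without this floor, and Nkd2, Rnf43 and Sp5 were below it in every E+F+ library. In E+F- cells of Sets 2 and 3 the share of such genes lower was 75.8 and 65.1%. Over the 11785 genes that averaged at least 1 TPM, the median log2 TPM ratio of IWR-1 to DMSO was -0.14 in E+F- Set 2 and -0.09 in E+F- Set 3, against -0.0039 and -0.0035 on TMM-scaled counts. TPM ratios in E+F- cells are therefore slightly lower than the edgeR differences, which use TMM scaling. The median member kept 67.3, 66.0 and 47.7% of its DMSO TPM in E+F+ cells of Sets 1, 2 and 3. It kept 40, 43.4 and 29.9% in E+F- cells and 46.7, 67.1 and 41.2% in unsorted cells.

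**Figure D3:**
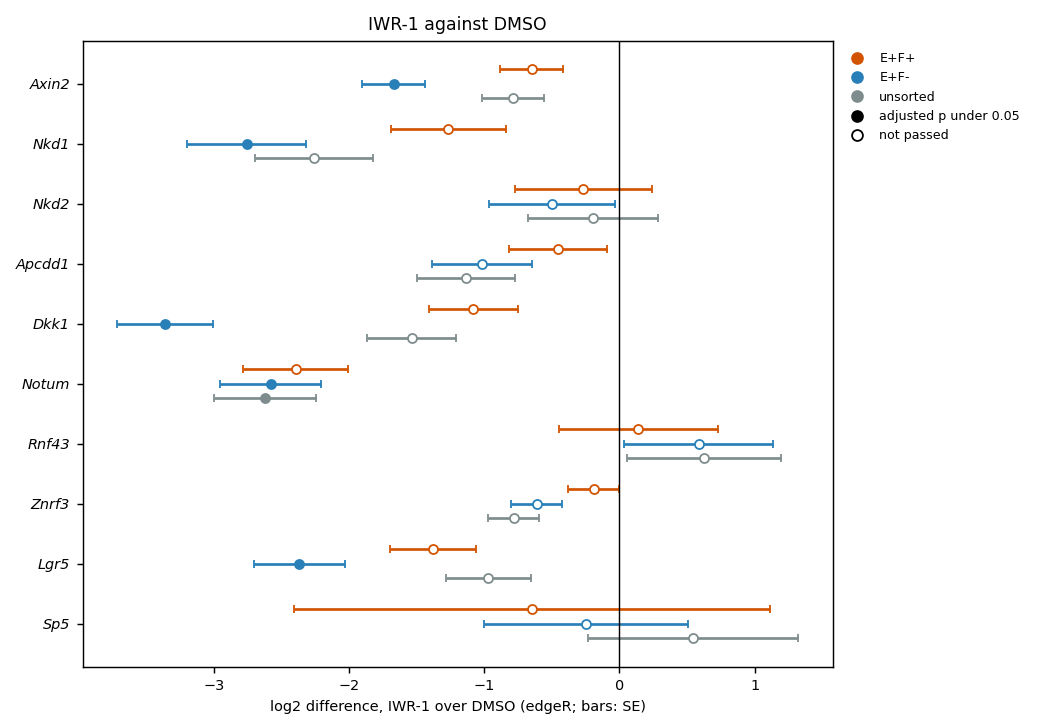
edgeR log2 difference, IWR-1 over DMSO, of each member (y axis) in E+F+, E+F- and unsorted cells, with bars of 1 SE. Filled points passed at an adjusted p under 0.05: Dkk1, Nkd1, Notum, Lgr5 and Axin2 in E+F- cells and Notum in unsorted cells.

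The libraries of the 2 treatments were apart, with all IWR-1 libraries lower, for 7 members in E+F- cells (6.68% of all genes), 5 in E+F+ cells (7.41%) and 5 in unsorted cells (5.63%) on library-size scaled counts. The median log2 difference of the 10 members was -0.65 in E+F+, -1.34 in E+F- and -0.88 in unsorted cells, beside 0.01, 0.01 and 0.02 for all genes tested. With the Set as a block the members called lower were 1 in E+F+ cells (0.0579% of all genes), 6 in E+F- cells (0.962%) and 5 in unsorted cells (0.608%).

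Marker levels of other cell types also differed with IWR-1, and a few genes carried most of each sum. The 5 paraxial mesoderm markers summed to 26.1 to 51.5 TPM in E+F- IWR-1 and 113.8 to 385.1 TPM in E+F- DMSO, with 3 of the 5 above 1 TPM in either group. Of these, Msgn1 averaged 8.96 TPM in E+F- IWR-1 and 176.6 TPM in E+F- DMSO and Tbx6 14.3 TPM in E+F- IWR-1 and 42.1 TPM in E+F- DMSO. Dll1 was at 17.6 TPM in E+F- IWR-1 and 18.4 TPM in E+F- DMSO, and the low Meox1 (0.40 TPM in E+F- IWR-1 and 0.070 TPM in E+F- DMSO) and Pax3 (0.70 TPM in E+F- IWR-1 and 0.017 TPM in E+F- DMSO) went the other way. This sum was 2.48 to 8.67 TPM in unsorted IWR-1 and 4.71 to 39.6 TPM in unsorted DMSO, and at most 1.51 TPM in every E+F+ library.

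The 5 cardiomyocyte markers had higher sums under IWR-1 in all 3 populations, without overlap. They summed to 34.8 to 53.4 TPM in E+F+ IWR-1 and 13.4 to 25.1 TPM in E+F+ DMSO, to 33.8 to 175.5 TPM in E+F- IWR-1 and 16.8 to 27.9 TPM in E+F- DMSO, and to 56.9 to 116.4 TPM in unsorted IWR-1 and 19.4 to 28.9 TPM in unsorted DMSO. In E+F- cells the difference lay in Myl7, with a mean of 102.3 TPM in E+F- IWR-1 and 18.4 TPM in E+F- DMSO. There Tnnt2 (1.23 TPM in E+F- IWR-1 and 1.14 TPM in E+F- DMSO) was level, and Myh6 and Actn2 were slightly lower under IWR-1. The low Nkx2-5 was higher, at 1.14 TPM in E+F- IWR-1 and 0.49 TPM in E+F- DMSO. In unsorted cells Myl7 averaged 71.2 TPM under IWR-1 and 13.8 TPM under DMSO, and Tnnt2 8.63 and 8.37 TPM. In E+F+ cells Myl7 averaged 24.6 TPM under IWR-1 and 7.31 TPM under DMSO, and Tnnt2 19.6 and 11.5 TPM. Actn2 was slightly lower under IWR-1 in both. The 6 pluripotent markers, mostly Pou5f1, summed to 304.6 to 981.1 TPM in E+F- IWR-1 and 87.0 to 383.5 TPM in E+F- DMSO, and to 186.5 to 757.0 TPM in unsorted IWR-1 and 111.6 to 333.3 TPM in unsorted DMSO. In E+F+ cells they summed to 13.1 to 27.5 TPM under IWR-1 and 15.3 to 28.4 TPM under DMSO. The part of these cell types in the members' values was not tested.

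Whether IWR-1 acted differently on a member in different populations was tested as the difference of 2 treatment effects. The edgeR test called 0 of 10 members for E+F+ minus E+F- (0.0217% of genes higher and 0.00723% lower), 0 for E+F+ minus unsorted and 0 for E+F- minus unsorted (0% of genes in either direction). At an unadjusted p under 0.05, 4 members were higher in the first (1.87% of all genes), 1 was higher in the second (0.456%) and 3 were lower in the third (1.21%), and none went the other way. The largest was Dkk1, for which the IWR-1 effect in E+F+ minus that in E+F- cells was 2.28 ± 0.47 on the log2 scale (edgeR adjusted p = 0.245). DESeq2 called that difference (2.27 ± 0.46, adjusted p = 0.00182, where it called 0.116% of genes higher) and no other member in any of the 3. For Nkd1 the same difference was 1.49 ± 0.60, for Axin2 1.02 ± 0.33 and for Lgr5 0.99 ± 0.45, and none passed. For Notum it was 0.18 ± 0.53.

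Without IWR-1, the 3 populations held these RNAs at different levels, and E+F+ cells were mostly lowest. Under DMSO, E+F+ cells had the highest mean for Lgr5 alone and the lowest for 8 members, while E+F- cells had the highest mean for 7 and unsorted cells for 2, Apcdd1 and Znrf3. Against E+F- cells, 8 members were lower in E+F+ cells and 0 higher by the edgeR test, where 13.8% of all genes were lower and 12.8% higher. At an unadjusted p under 0.05, 1 member, Lgr5, was higher (18.6% of all genes), and DESeq2 called it (adjusted p = 0.0383, with 14.5% of genes called higher). The median log2 difference of the 10 members was -1.71, beside -0.01 for all genes.

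Inside the cell, Axin2 had 12.5, 12.7 and 13.3 TPM in E+F+ DMSO, against 66.8, 57.9 and 80.0 TPM in E+F- DMSO, a log2 difference of -2.28 ± 0.24 (edgeR adjusted p = 2.59e-05). Nkd1 differed by -1.93 ± 0.43 (edgeR adjusted p = 0.00411). Nkd2 had 0.74, 0.83 and 0.37 TPM in E+F+ DMSO, against 4.85, 4.05 and 6.73 TPM in E+F- DMSO, and differed by -2.88 ± 0.51 (edgeR adjusted p = 0.000946). All 3 genes were lower in each E+F+ DMSO library than in any E+F- DMSO library. The share of all genes apart in this way is not given, and 13.8% of all genes passed as lower here by the edgeR test. Of the secreted inhibitors, Dkk1 differed by -1.79 ± 0.33 (edgeR adjusted p = 0.00125) and Notum by -1.51 ± 0.36 (edgeR adjusted p = 0.0063). Sp5 was close to the limit of detection in E+F+ cells, with 0.16, 0.41 and 0.24 TPM in E+F+ DMSO against 85.8, 65.1 and 102.0 TPM in E+F- DMSO, and it differed by -8.14 ± 1.16 (edgeR adjusted p = 0.000208).

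Of the genes of receptor turnover, Rnf43 and Znrf3 passed as lower in E+F+ cells, and neither call was stable. Rnf43 had 0.42, 0.28 and 0.54 TPM in E+F+ DMSO, against 0.54, 1.61 and 2.11 TPM in E+F- DMSO, and sat at the threshold with -1.63 ± 0.58 (edgeR adjusted p = 0.0499). That call held in only 6 of 15 alternatives, it was lost on leaving out any one of 5 of the 6 libraries, and without the Set 3 libraries the adjusted p was 0.183 (edgeR). Znrf3 differed by -0.63 ± 0.19 (edgeR adjusted p = 0.0231), a call that was lost without Set 3 (-0.43, edgeR adjusted p = 0.175), without the Set 3 E+F- DMSO library (-0.39, edgeR adjusted p = 0.14), without the Set 1 E+F+ DMSO library (-0.52, edgeR adjusted p = 0.0955) and in a fit of these 2 groups alone (edgeR adjusted p = 0.0565). Apcdd1 went the other way at 0.40 ± 0.36 without passing (edgeR adjusted p = 0.44), and so did Lgr5, with 11.3, 8.0 and 10.2 TPM in E+F+ DMSO against 7.78, 6.14 and 3.96 TPM in E+F- DMSO (0.81 ± 0.31, edgeR adjusted p = 0.0655). For Lgr5 all 3 E+F+ libraries were above all 3 E+F- libraries, and the share of all genes apart in this way is not given.

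By mean TPM, unsorted cells lay between the sorted populations for 8 members. Against unsorted cells under DMSO, 4 members were lower in E+F+ cells, where 5.85% of all genes were lower. These were Sp5 (-5.55 ± 1.12, edgeR adjusted p = 0.00921), Axin2 (-1.18 ± 0.23, edgeR adjusted p = 0.00797), Dkk1 (-1.14 ± 0.32, edgeR adjusted p = 0.0375) and Znrf3 (-0.81 ± 0.19, edgeR adjusted p = 0.0171). The Dkk1 call did not hold when any single E+F+ DMSO library was left out (edgeR adjusted p of 0.082, 0.132 and 0.0793 without Set 1, 2 and 3) and without the Set 1 unsorted DMSO library (edgeR adjusted p = 0.179), and the Znrf3 call without the Set 1 library of E+F+ DMSO (edgeR adjusted p = 0.0749) or of unsorted DMSO (edgeR adjusted p = 0.0651). Without the Set 3 libraries Dkk1 did not pass (edgeR adjusted p = 0.0946) and Nkd1 did (-1.29, edgeR adjusted p = 0.00952).

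In E+F- cells against unsorted cells under DMSO, 2 members were higher, where 4.56% of all genes were higher, and 1 was lower, where 4.92% were lower. Axin2 was higher by 1.10 ± 0.23 (edgeR adjusted p = 0.00939) and Nkd2 by 1.84 ± 0.48 (edgeR adjusted p = 0.0292), while Apcdd1 was lower by -1.51 ± 0.37 (edgeR adjusted p = 0.0204). Nkd2 had 4.85, 4.05 and 6.73 TPM in E+F- DMSO, against 2.42, 0.96 and 0.94 TPM in unsorted DMSO, with no overlap. The Nkd2 call was lost without any one of 5 of the 6 libraries (edgeR adjusted p up to 0.123), that of Apcdd1 without Set 2 unsorted DMSO (edgeR adjusted p = 0.097) or Set 1 or 3 of E+F- DMSO (edgeR adjusted p of 0.0872 and 0.0528), and that of Axin2 without Set 2 unsorted DMSO (edgeR adjusted p = 0.0542). Without the Set 3 libraries Nkd1 also passed as higher (0.86, edgeR adjusted p = 0.0394).

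**Figure D4:**
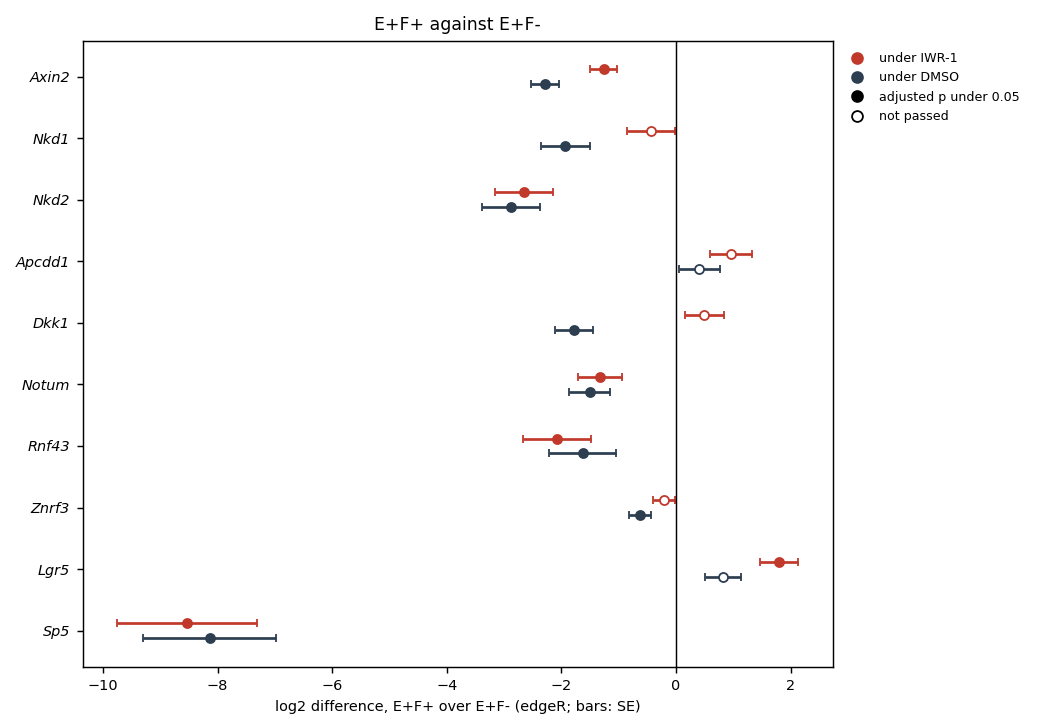
edgeR log2 difference, E+F+ over E+F- cells, of each member (y axis) under IWR-1 (red) and under DMSO (dark), with bars of 1 SE. Filled points passed at an adjusted p under 0.05. Dkk1 was at 0.50 under IWR-1 and -1.79 under DMSO, and Lgr5 at 1.8 under IWR-1 and 0.81 under DMSO.

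The order of the populations was in part another one under IWR-1. In E+F+ against E+F- cells with IWR-1, 5 members were lower, where 12.1% of all genes were lower, and 1 was higher, where 10.4% were higher. The lower ones were Sp5 (-8.54 ± 1.22, edgeR adjusted p = 0.000317), Nkd2 (-2.65 ± 0.51, edgeR adjusted p = 0.00207), Rnf43 (-2.08 ± 0.59, edgeR adjusted p = 0.0189), Notum (-1.32 ± 0.39, edgeR adjusted p = 0.0225) and Axin2 (-1.26 ± 0.23, edgeR adjusted p = 0.00165). Lgr5 was the higher one, with 4.45, 3.38 and 3.63 TPM in E+F+ IWR-1 against 1.14, 1.36 and 0.74 TPM in E+F- IWR-1 (1.8 ± 0.33, edgeR adjusted p = 0.00158). Without the Set 3 libraries the adjusted p was 0.0776 for Notum and 0.0511 for Rnf43 (edgeR), and Nkd1 passed instead (-0.84, edgeR adjusted p = 0.0341). With the Set as a block Apcdd1 also passed as higher (edgeR adjusted p = 0.00105, against 0.0704 without the block), where 14.9% of all genes were higher. Leaving out the Set 1 E+F+ IWR-1 library left 3 members lower, without Notum (edgeR adjusted p = 0.0897) and Rnf43 (edgeR adjusted p = 0.0763). Notum was also lost without the Set 3 E+F- IWR-1 library (edgeR adjusted p = 0.0777), and Rnf43 without the Set 2 E+F+ IWR-1 library (edgeR adjusted p = 0.0631) or the Set 1 E+F- IWR-1 library (edgeR adjusted p = 0.0653).

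The gap between the highest and the lowest population mean was narrower under IWR-1 for 7 of the 10 members. For Apcdd1, counted among these, it was nearly level, at 2.75-fold under IWR-1 and 2.78-fold under DMSO. It was 2.41-fold under IWR-1 and 5.31-fold under DMSO for Axin2, and 1.33-fold under IWR-1 and 4.09-fold under DMSO for Nkd1. For Dkk1 it was 2.41-fold under IWR-1 and 3.75-fold under DMSO, and E+F- cells had the lowest mean under IWR-1 and the highest under DMSO. For Lgr5 it was wider, at 3.60-fold under IWR-1 and 1.65-fold under DMSO, and for Sp5, with few counts in E+F+ cells, it was 389-fold under IWR-1 and 312-fold under DMSO. These ratios are of mean TPM and were not tested, and the share of all genes with a narrower gap is not given.

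Other genes of the pathway were read from 3 lists that hold none of the members. Of 13 secreted Wnt antagonists, 7 had enough counts to test, and of these 1 was higher under IWR-1 in E+F- cells, where 0.13% of all genes were higher. This was Sfrp1, which encodes a Frizzled-like protein that binds Wnt, with 5.16, 3.16 and 3.92 TPM in E+F- IWR-1 against 0.92, 0.70 and 1.52 TPM in E+F- DMSO (2.07 ± 0.37, edgeR adjusted p = 0.0178). Of 13 R-spondin, LRP and secretion genes, 11 were tested and 1 was lower in E+F- cells. This was Tnfrsf19, a receptor of the TNF family, with 6.30, 8.02 and 9.46 TPM in E+F- IWR-1 against 79.6, 55.5 and 76.7 TPM in E+F- DMSO (-3.05 ± 0.34, edgeR adjusted p = 0.000577), and by its p-value it ranked 3, just after Dkk1. Of 14 nuclear target genes all were tested and 1 was lower in E+F- cells, Cdx1, a homeobox gene of the posterior body, with 0.08, 0.08 and 0.61 TPM in E+F- IWR-1 against 5.06, 4.10 and 9.29 TPM in E+F- DMSO (-4.52 ± 0.71, edgeR adjusted p = 0.0118).

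The next genes by adjusted p in these lists did not pass. Bambi, a decoy receptor of the TGF-β family, had 26.0, 29.1 and 21.1 TPM in E+F- IWR-1, against 84.0, 61.4 and 50.6 TPM in E+F- DMSO (-1.28 ± 0.28, edgeR adjusted p = 0.0585). Cdx4 did not exceed 1.30 TPM in any E+F- library (-4.11 ± 0.95, edgeR adjusted p = 0.0878), and Myc differed there by -0.80 ± 0.25 (edgeR adjusted p = 0.266). Sfrp2, Dkk3 and Sfrp5, all secreted Wnt inhibitors or their relatives, and Rspo3, Rspo1 and Lrp5 had an edgeR adjusted p of 0.356 (Rspo3, unsorted cells) or more in the 3 IWR-1 comparisons. In E+F+ and unsorted cells the edgeR test called 0 genes of these 3 lists under IWR-1. At an unadjusted p under 0.05, 3 list genes were lower and 1 higher in E+F+ cells, where 2.97% of all genes were lower and 2.05% higher. By that rule 3 were lower and 3 higher in unsorted cells, where 4.24% of all genes were lower and 4.45% higher. DESeq2 called 1 lower in E+F+ cells, Tnfrsf19 (0.174% of all genes lower), and in unsorted cells 2 lower, Tnfrsf19 and Cdx1 (0.716% lower), and 1 higher, Sfrp1 (0.412% higher). The lists' median log2 differences in E+F- cells were 0.33, 0.06 and -0.71 in the order given, beside -1.34 for the 10 members and 0.01 for all genes. In the DMSO comparison of E+F+ with E+F- cells, 9 of the 14 nuclear target genes, 3 of the 11 R-spondin, LRP and secretion genes and 3 of the 7 antagonists were lower in E+F+ cells, and 1 antagonist was higher, where 13.8% of all genes were lower and 12.8% higher.

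As a description, log2 CPM of Axin2 was compared with that of every gene tested over the 18 libraries, which share 6 groups and 3 Sets and so are not independent points. Outside the members the most similar were Wnt5b (Pearson r = 0.954), Eci3 (0.945), Sema4f (0.935), Msgn1 (0.926) and Wnt3a (0.923). Among the members r ran over 0.714 to 0.823 for Nkd2, Sp5, Dkk1, Notum, Nkd1 and Znrf3, and was 0.396 for Rnf43, 0.127 for Apcdd1 and 0.0993 for Lgr5. Over the 9 differences of IWR-1 minus DMSO within a Set, which leave out the level of each population, r with Axin2 was 0.901 for Dkk1 and 0.899 for Lgr5. It was 0.66 for Nkd1, 0.61 for Nkd2, 0.398 for Sp5, 0.364 for Apcdd1 and 0.337 for Znrf3. For Notum it was -0.135 and for Rnf43 -0.585. The genes outside the members with the highest r with Axin2 in those 9 differences were Atpaf1, Mllt1, Cnot10, Usp12 and Taf3 (r of 0.947 to 0.966). These 9 points share the 3 Sets, and r does not show the size or sign of a difference. Atpaf1 averaged 27.3 TPM in E+F+ IWR-1 and 25.2 TPM in E+F+ DMSO, and 17.5 TPM in E+F- IWR-1 and 21.5 TPM in E+F- DMSO.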

How the data were processed

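RNA was measured in 18 libraries, 3 in each of 6 groups, mapped to groups and Sets by the source names in the labels. Per the labels and the study's methods, the authors used TruSeq version 2 libraries, which do not mark strand, and single reads, with CASAVA 1.8.2, Bowtie 0.12.9 and RSEM 1.2.3 on RefSeq transcripts (mm10). The deposited expected counts are RSEM's estimated counts per gene, not normalized, and the deposited TPM are the authors' RSEM levels, scaled to the same sum in each library. RSEM divides reads that fit several genes by a model. Counts were given for 20321 genes and TPM for 20308.

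The test was edgeR 4.0.16 in R 4.3.3 on the expected counts after rounding, with TMM scaling, its filter on low counts by group, 1 coefficient per group over all 18 libraries, a quasi-likelihood test and Benjamini-Hochberg adjustment over 13826 genes, with calls at an adjusted p under 0.05. The study's own test, EBSeq, was not used here. TPM served for levels and for ratios within a Set. Summed counts per library were 19725500 to 26649631, and members had 2 to 7550 counts in a library, and Sp5, Rnf43 and Nkd2 had the widest errors in the IWR-1 comparisons. The samples are labelled as separate Sets, so p-values measure the spread between these libraries.

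Libraries of the same Set deviated together from their group means in the IWR-1 comparisons (correlation over genes of 0.34 to 0.523 in E+F+, 0.345 to 0.752 in E+F- and 0.636 to 0.741 in unsorted cells). For E+F+ with E+F- cells given IWR-1 it was 0.19 to 0.291. The highest correlation between different Sets was -0.0328, 0.403, -0.114 and 0.151 in that order, so in E+F- cells it exceeded the lowest same-Set value. The main edgeR test had no Set term, so its calls did not use the pairs. The Set entered only as a block, as an alternative, and in the TPM ratios within a Set.

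Alternatives were no filter, a filter of 1 CPM in 3 libraries, DESeq2 size factors, DESeq2 1.42.0, limma 3.58.1 on log2(TPM + 1) and log2(TPM + 0.1), the compared groups alone, the Set as a block, leaving out Set 3 and leaving out each library. The fitting steps were tested on simulated data. The genes named were the 10 members, up to 4 genes of each of 3 lists of other Wnt genes by smallest adjusted p, and the 5 genes most like Axin2 in each of 2 measures. The members and lists were chosen with earlier results of these data known. Gene positions are from GENCODE on GRCm38, and promoters from RefSeq on GRCm38.p6.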

Additional observations from a re-analysis of the deposited data

How the results depend on the processing

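No call of a member reversed under any alternative, and leaving out each library in turn reversed uncalled differences only. The share of all genes called also moved with the setting and is given in brackets where held. Counts without it in this section describe the setting only. The count of members called lower under IWR-1 in E+F+ cells was 0 (0%), and 2 by DESeq2 (0.174%), 2 with the compared groups alone and 1 with the Set as a replicate block (0.0579%). In E+F- cells it was 5 (0.391%), and 3 with the compared groups alone. In unsorted cells it was 1 (0.0868%), and 4 by DESeq2 (0.716%), 2 by limma on log2(TPM + 1), 0 with the compared groups alone, 5 with the Set as a block (0.608%) and 2 without the Set 3 libraries. Under DMSO, the count of members higher in E+F+ than in E+F- cells was 0 (12.8%), and 1 by DESeq2 (14.5%), by limma on log2(TPM + 1) and with the block. Under IWR-1 that count was 1 (10.4%), and 2 by DESeq2, by limma on log2(TPM + 0.1) and with the block (14.9%). DESeq2 called 1 member higher (0.116%) for the IWR-1 effect in E+F+ minus that in E+F- cells, against 0 (0.0217%).
In the DMSO population comparisons the lowest same-Set correlation was 0.0977 (E+F+ and E+F-), 0.1 (E+F+ and unsorted) and -0.00822 (E+F- and unsorted). The highest correlation between different Sets was 0.0895, 0.129 and 0.367 in that order, so same-Set and different-Set values came close or overlapped. There the block gave 8 members lower in E+F+ than in E+F- cells, 6 lower in E+F+ than in unsorted cells (against 4), and 4 higher in E+F- than in unsorted cells (against 2). The share of all genes called with the block is not given for these comparisons.
Uncalled differences that reversed were, without Set 3, Rnf43 in E+F+ (-0.016), Sp5 in E+F- (0.18), and for differences of effects Nkd2 in E+F+ minus E+F- (-0.093) and Nkd2 (0.014) and Rnf43 (0.37) in E+F- minus unsorted. By limma on log2(TPM + 1) they were Sp5 in E+F+ minus E+F- (0.34) and Notum (-0.10) and Rnf43 (0.072) in E+F- minus unsorted, and by limma on log2(TPM + 0.1) Rnf43 in the same (0.11). The cause was not tested.
Leaving out each library in turn, the members lower numbered 4 to 5 in E+F- and 0 to 2 in unsorted cells under IWR-1, 2 to 5 in E+F+ against unsorted, 0 to 1 in E+F- against unsorted and 3 to 5 in E+F+ against E+F- under IWR-1. Members higher numbered 0 to 1 (E+F+ against E+F- under DMSO), 0 to 3 (E+F- against unsorted) and 1 to 2 (E+F+ against E+F- under IWR-1).
The log2 differences that changed sign, none of them called, ran over -0.59 to 0.079 (Nkd2) and -0.30 to 0.41 (Rnf43) in E+F+, -0.67 to 0.089 (Sp5) in E+F-, and -0.62 to 0.36 (Nkd2) and -0.92 to 1.62 (Sp5) in unsorted cells. For differences of effects they ran over -0.099 to 0.57 (Nkd2), -0.087 to 0.49 (Notum) and -1.24 to 0.027 (Sp5) in E+F+ minus E+F-. In E+F+ minus unsorted they ran over -0.11 to 0.34 (Axin2), -0.029 to 0.74 (Dkk1), -0.62 to 0.35 (Nkd2), -0.037 to 0.76 (Notum) and -2.26 to 0.27 (Sp5). In E+F- minus unsorted they ran over -0.17 to 0.69 (Apcdd1), -0.85 to 0.12 (Nkd2), -0.18 to 0.57 (Notum), -0.44 to 0.36 (Rnf43) and -1.86 to 0.67 (Sp5). Low counts limit Sp5 in E+F+ cells, where a library held 2 to 12 counts at 0.07 to 0.41 TPM.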
